A study of Mus musculus with 9 samples.

Results

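Cyclin G2, the FOXO transcription factors and genes that act with them in growth arrest were examined in SCCVII, which the labels describe as a mouse line from a spontaneous oral squamous cell carcinoma. The 9 genes were Ccng2, Foxo1, Foxo3, Foxo4, Cdkn1b, Cdkn1c, Cited2, Txnip and Irs2. They were picked by name, starting from the higher level of Ccng2 in IR than in NIR, and they are 9 of the 18193 genes analysed. All of their 19 single-gene probe sets were taken, of 45036 probe sets that were not controls. A probe set is a group of short oligonucleotides on an Affymetrix array that together read out a transcript.

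The 9 arrays formed 3 groups of 3. IR were lines grown out of tumours that parental SCCVII cells had formed in stroma irradiated before the injection. NIR were lines grown out of tumours formed in stroma left without irradiation. PA were the parental cells kept in standard culture, from which both of the others descend. Per the labels, the tumours behind IR were strongly hypoxic, and the IR lines stayed invasive and metastatic after expansion in normoxic culture, while NIR tumours and lines were poorly invasive and metastatic. The comparison of IR with NIR asks what differed between derived lines whose tumours grew with or without prior irradiation of the host tissue, and the comparisons with PA ask how each set of derived lines differs from its source. Nothing in the labels tells if arrays with the same group name stem from different tumours or from a single line, so a p-value may measure only a technical spread. A lower value in such bulk RNA cannot tell fewer expressing cells from less RNA per cell.

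FOXO proteins are transcription factors that enter the nucleus when insulin and growth factor signalling through PI3K and the kinase AKT is low, and there they switch on genes of growth arrest, stress resistance and cell death. AKT phosphorylation holds them in the cytoplasm, so their activity is set largely after translation and is not read by their mRNA. Ccng2 encodes cyclin G2, an unconventional cyclin that is abundant in resting cells, is a direct FOXO target and rises in hypoxia. Cdkn1b and Cdkn1c encode the CDK inhibitors p27 and p57, Irs2 is an adaptor of the insulin receptor that FOXO factors induce in liver, Txnip binds thioredoxin and restrains glucose uptake, and Cited2 competes with the hypoxia-inducible factors for the coactivators CBP and p300.

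Promoters of 7 of the 9 genes were matched in the RefSeq table (build GRCm38.p6), all but those of Foxo4 and Cdkn1c. The 250 bases before the start site are shown for the 3 genes with a FOXO-type motif in that stretch, written 5' to 3' on the gene's strand, with the motif in capitals. The motifs searched on both strands were GTAAACA, the forkhead consensus, and CAAAACA, a core of insulin response elements, which do not overlap each other in these stretches. Ccng2 lies on the plus strand at chr5:93267323-93267572, Txnip on the plus strand at chr3:96557707-96557956 and Irs2 on the minus strand at chr8:11008930-11009179.
Ccng2: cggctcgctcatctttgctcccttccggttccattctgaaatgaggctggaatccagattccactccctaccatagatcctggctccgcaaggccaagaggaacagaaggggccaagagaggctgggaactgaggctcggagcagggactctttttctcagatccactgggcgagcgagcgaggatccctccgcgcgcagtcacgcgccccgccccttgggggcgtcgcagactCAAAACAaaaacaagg
Txnip: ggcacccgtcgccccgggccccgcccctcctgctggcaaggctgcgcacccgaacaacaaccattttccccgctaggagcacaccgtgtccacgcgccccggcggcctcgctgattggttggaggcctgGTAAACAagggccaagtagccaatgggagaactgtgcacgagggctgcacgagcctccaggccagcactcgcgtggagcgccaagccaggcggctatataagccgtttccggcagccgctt
Irs2: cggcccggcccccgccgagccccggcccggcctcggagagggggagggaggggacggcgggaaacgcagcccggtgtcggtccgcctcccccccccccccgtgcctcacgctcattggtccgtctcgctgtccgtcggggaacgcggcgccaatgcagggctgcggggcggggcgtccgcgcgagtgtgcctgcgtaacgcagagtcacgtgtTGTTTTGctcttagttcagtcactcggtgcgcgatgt
CAAAACA begins 16 bases before the start of Ccng2, and on the opposite strand of Irs2 it is read as TGTTTTG from 37 bases before the start. GTAAACA begins 121 bases before the start of Txnip. Of 32851 promoter stretches of 250 bases, 5.56% held CAAAACA and 3.17% held GTAAACA on either strand. ACGTG, the core of hypoxia response elements, was searched too and occurred in the stretches of Cited2 and Irs2, in both within the palindromic E-box CACGTG, against 16.6% of all stretches with ACGTG and 6.02% with CACGTG. A match is a run of letters and was not tested as a binding site.

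Arrays have no counting depth, and their number limits the precision of every value. The medians of the 9 arrays lay between 4.45 and 4.52 on the log2 scale. The SD of the gene-wise differences between a pair of arrays was 0.129 to 0.230 within groups and 0.180 to 0.301 between groups, so the array pairs of a group were not much closer than pairs across groups. IR3 stood apart in several of the genes below. Of 14 analysed markers of squamous and other epithelium, 7 averaged above the median probe set of 4.48 over the 9 arrays (Krt5, Krt6a, Krt8, Krt18, Epcam, Sfn and Pkp1) and 7 below it (Krt14, Krt16, Krt17, Trp63, Cdh1, Dsp and Perp). Probe sets differ in brightness for the same amount of RNA, so this count does not settle the labelled cell type. Of 11 fibroblast markers, 8 averaged above that median. Proteins were not measured.

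Ccng2 was high in IR, low in NIR and close to IR in PA. Its brightest probe set read 7.34, 7.35 and 8.76 in IR1, IR2 and IR3, against 6.43, 6.29 and 6.63 in NIR1, NIR2 and NIR3 and 7.27, 7.28 and 7.67 in PA1, PA2 and PA3 (RMA values, log2). All 3 IR arrays and all 3 PA arrays lay above every NIR array, while IR1 and IR2 fell inside the range of PA. Ccng2 averaged 7.82 ± 0.81 over the IR arrays, 6.45 ± 0.17 over the NIR arrays and 7.41 ± 0.22 over the PA arrays (mean ± SD, n = 3 each), which puts the order as IR, PA, NIR, with the difference of IR from PA smaller than the spread within IR. IR exceeded NIR by 1.37 on the log2 scale (SE 0.30), or 2.58-fold, the value for which these genes were picked, so it is given as a description. NIR stood at -0.96 against PA (SE 0.30) and IR at 0.41 against PA (SE 0.30), likewise without a test because they share arrays with that choice.

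The second probe set of Ccng2 gave the same arrangement. It read 7.20, 7.27 and 8.60 in IR, 5.89, 6.01 and 6.61 in NIR and 7.14, 7.14 and 7.71 in PA. Again no NIR array reached an IR or PA array, and IR minus NIR was 1.52 (SE 0.33). Without IR3 the difference of the brightest probe set between IR and NIR was 0.90 (SE 0.13) and that between IR and PA was -0.06 (SE 0.13), so both values were lower without that array. Leaving out each array in turn gave 0.90 to 1.61 for IR minus NIR and -1.05 to -0.83 for NIR minus PA.

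**Figure D1:**
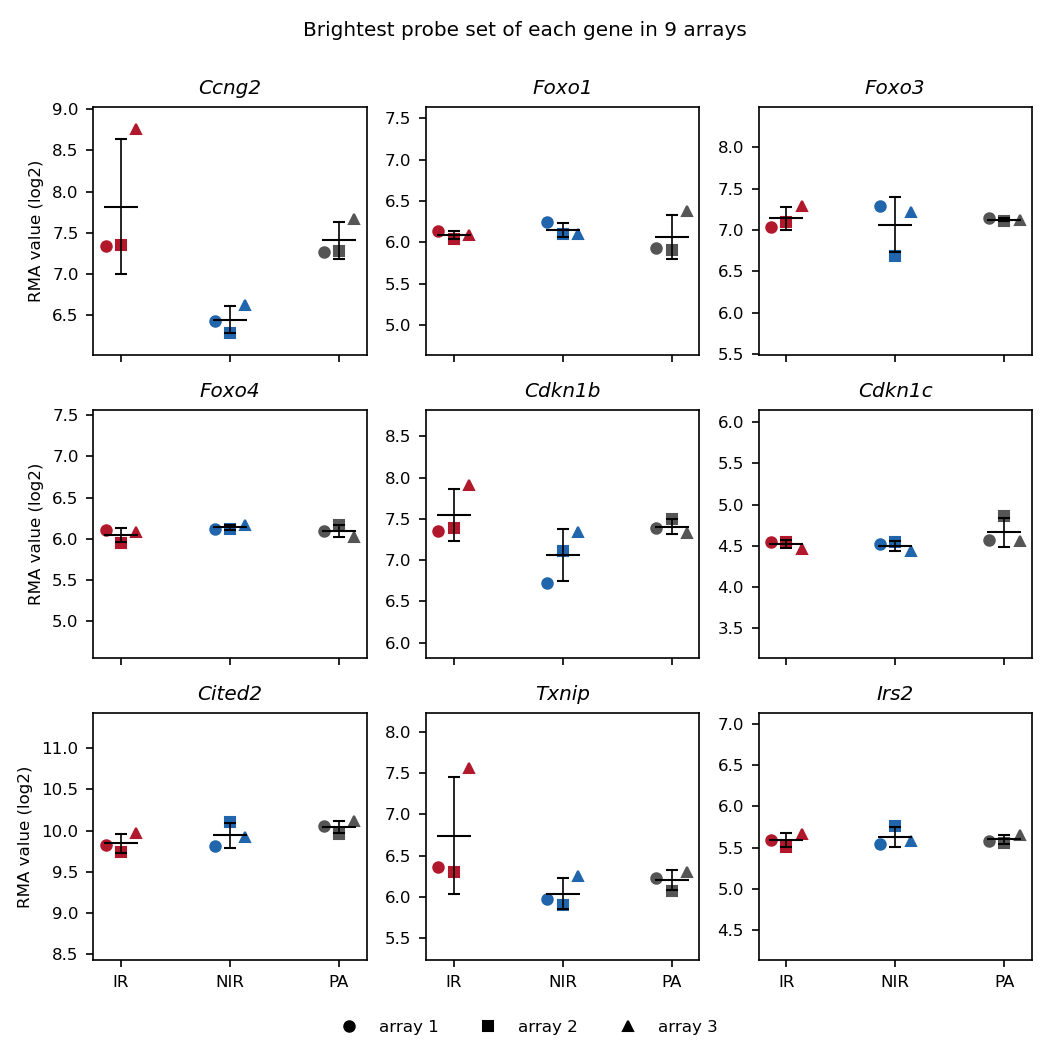
RMA values (log2, vertical axis, the same span of 3 units in every panel) of the brightest probe set of each of the 9 genes in IR, NIR and PA arrays; symbols are arrays 1 to 3, and bars are the mean and SD of n = 3. Ccng2 in NIR (6.29 to 6.63) lies below all IR and PA arrays, IR3 is the highest array for Ccng2, Txnip, Cdkn1b and Foxo3, and the remaining genes differ little.

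Among the 9 genes, 1 was called between IR and NIR, Ccng2 itself, beside 1.65% of all genes, 0.786% higher and 0.863% lower (limma with Benjamini-Hochberg adjustment over all 18193 genes, threshold 0.05). This is the contrast that chose the genes, and nothing is read from the counts of members in it. Of the 9 genes, 3 had all IR arrays above all NIR arrays, Ccng2, Txnip and Cdkn1b, beside 8.69% of all genes, and 1, Foxo4, had all IR arrays below, beside 9.4%. In a fit of every probe set, 0 of the 19 were called between IR and NIR, including both of Ccng2, beside 0.693% of all probe sets, and 6, of which 2 are Ccng2's own, had an unadjusted p below 0.05 (limma), beside 12.9% of all probe sets.

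Against PA, the 8 genes other than Ccng2 were tested and 0 passed in IR or in NIR, where limma called 1.06% of all genes in IR minus PA (0.297% higher and 0.759% lower) and 1.3% in NIR minus PA (0.379% higher and 0.918% lower). At an unadjusted p below 0.05 the count was also 0 of 8 in both. The adjusted p ran from 0.597 to 0.989 in IR minus PA and from 0.442 to 0.929 in NIR minus PA (limma). In the fit of every probe set 0 of the 19 were called in IR minus PA, beside 0.622% of all probe sets. In NIR minus PA 0 were called as well, beside 0.77%. At an unadjusted p below 0.05 (limma) there were 3 and 2, beside 7.32% and 10.1% of all probe sets. The 2 are those of Ccng2, which share arrays with the choice of the genes, so nothing is read from them. None of the 9 genes had all derived arrays above all PA arrays, beside 7.26% of all genes for IR and 7.82% for NIR. With 3 arrays a group a missed threshold does not show equal levels, and the intervals given below bound the differences that remain possible.

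Txnip followed Ccng2 in part. Its brightest probe set read 6.36, 6.31 and 7.56 in IR1, IR2 and IR3, against 5.97, 5.90 and 6.26 in NIR and 6.23, 6.07 and 6.31 in PA. IR3 lay more than 1 log2 unit above every other array, while IR1 and IR2 lay just above NIR and beside the top of PA. IR minus NIR was 0.70 (SE 0.26), IR minus PA was 0.54 (95% interval -0.03 to 1.11, limma adjusted p = 0.616) and NIR minus PA was -0.16 (-0.73 to 0.41, adjusted p = 0.866). Without IR3 these were 0.29, 0.13 and -0.16. The gene's other probe set read 5.41, 5.52 and 5.93 in IR, above all of NIR (5.25, 5.36 and 5.37) and all of PA (5.32, 5.11 and 5.37). There IR minus PA was 0.35 (95% interval 0.09 to 0.62, limma adjusted p = 0.456). Unlike Ccng2, Txnip was not below PA in all NIR arrays by either probe set, though that contrast between the genes was not tested.

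Cdkn1b, which encodes p27, read 7.35, 7.38 and 7.91 in IR, against 6.73, 7.11 and 7.34 in NIR and 7.39, 7.50 and 7.32 in PA. IR3 was again the highest array and NIR1 the lowest, and NIR3 came within 0.01 of the lowest IR array, so IR and NIR were only just apart. IR minus NIR was 0.49 (SE 0.16), IR minus PA 0.14 (95% interval -0.22 to 0.51, limma adjusted p = 0.892) and NIR minus PA -0.35 (-0.71 to 0.02, adjusted p = 0.442). Without IR3 the difference from NIR was 0.31 and that from PA was -0.04. The other probe set of Cdkn1b stayed between 3.50 and 3.79 on all 9 arrays, below the median probe set, and showed no such pattern.

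**Figure D2:**
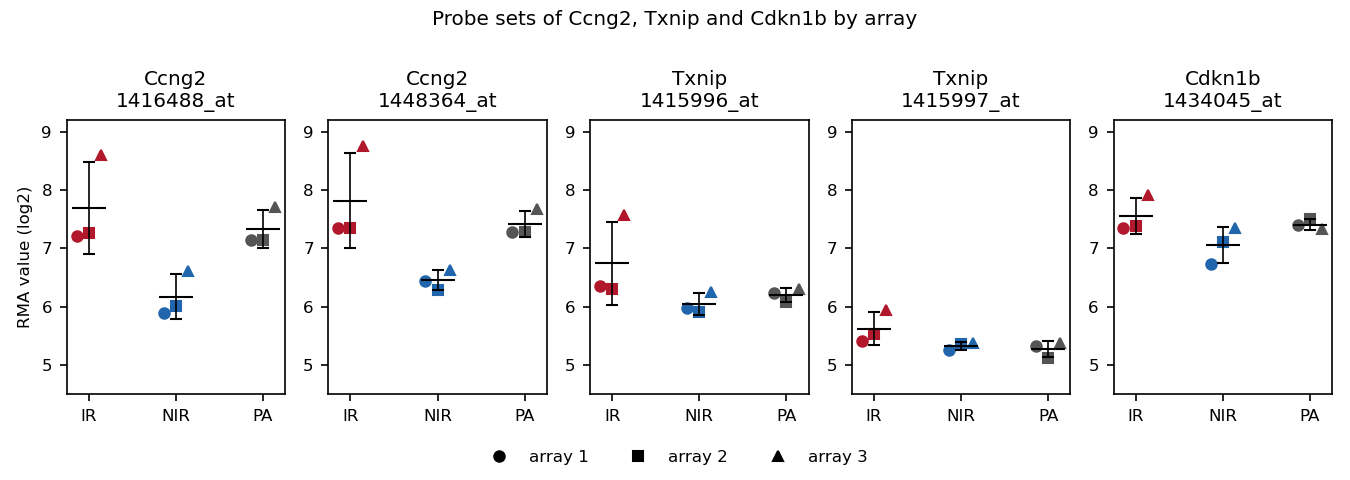
RMA values (log2) of both probe sets of Ccng2 and of Txnip and the bright probe set of Cdkn1b in IR, NIR and PA arrays; symbols are arrays 1 to 3, bars the mean and SD of n = 3. Both Ccng2 probe sets place NIR lowest, and IR3 tops every panel, at 8.60 and 8.76 for Ccng2 and 7.56 for the brighter Txnip probe set.

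The array IR3 carried the largest values of Ccng2, Txnip and Cdkn1b together. IR3 minus the mean of IR1 and IR2 was 1.41 for Ccng2, 1.23 for Txnip and 0.54 for Cdkn1b, against a median of -0.01 and an SD of 0.20 over all 18193 genes. Over all genes, 9, Ccng2 included, exceeded the other IR arrays by at least as much as Ccng2 did in IR3, 13 by at least as much as Txnip and 213 by at least as much as Cdkn1b. The same array had the highest mean of 14 macrophage markers, 5.19 against 4.76 to 4.77 in the other IR arrays, 4.71 to 4.86 in NIR and 4.53 to 4.67 in PA, with 7 of the 14 highest in IR3. Among the 14, Lyz2 read 8.25 in IR3 against 5.71 and 5.78 in IR1 and IR2. Others did not rise in IR3: Laptm5 read 5.06 there against 5.16 and 5.16, and Csf1r 5.53 against 5.74 and 5.51. Adgre1, Itgam, Fcgr3, C1qa, C1qb and C1qc averaged below the median probe set. The part of the macrophage markers in the values of IR3 was not tested. The gap of Ccng2 between IR and NIR stood at 0.90 with IR3 left out.

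The FOXO genes themselves differed little between the groups. Foxo1, whose product is the main FOXO factor of insulin signalling in liver, read 6.14, 6.04 and 6.09 in IR, 6.25, 6.10 and 6.11 in NIR and 5.93, 5.90 and 6.38 in PA. The groups overlapped, with PA holding both the lowest and the highest array. IR minus PA was 0.02 (95% interval -0.23 to 0.27, limma adjusted p = 0.984), NIR minus PA 0.08 (-0.17 to 0.33, adjusted p = 0.837) and IR minus NIR -0.06 (SE 0.11). Its 3 other probe sets gave -0.18 to 0.13 for IR minus PA and -0.05 to 0.01 for NIR minus PA, with no common direction.

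Foxo3 read 7.03, 7.09 and 7.29 in IR, 7.29, 6.69 and 7.22 in NIR and 7.14, 7.11 and 7.12 in PA. NIR2 alone was low, and all 3 groups overlapped. IR minus PA was 0.02 (95% interval -0.28 to 0.31, limma adjusted p = 0.989) and NIR minus PA -0.06 (-0.36 to 0.24, adjusted p = 0.915). A dim probe set of Foxo3, with a mean of 4.19 in IR, 4.34 in NIR and 4.51 in PA, had all IR arrays below all PA arrays (-0.32, limma adjusted p = 0.297), which the brighter ones did not.

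Foxo4 varied little by its brightest probe set. It read 6.11, 5.95 and 6.08 in IR, 6.12, 6.12 and 6.17 in NIR and 6.09, 6.17 and 6.03 in PA. NIR lay above IR by less than 0.1 on average, and both overlapped PA. IR minus PA was -0.05 (95% interval -0.21 to 0.11, limma adjusted p = 0.917) and NIR minus PA 0.04 (-0.11 to 0.20, adjusted p = 0.872), with IR minus NIR at -0.09 (SE 0.07). The dimmer probe set of Foxo4 read 4.67, 4.52 and 4.51 in IR, 4.67, 4.64 and 4.90 in NIR and 4.83, 4.75 and 4.90 in PA. There all IR arrays lay below all PA arrays (-0.26, limma adjusted p = 0.424), and NIR overlapped both. For these 3 FOXO genes the intervals against PA leave out a change of 0.4 on the log2 scale in either direction for the brightest probe set. In IR minus PA the 95% intervals reached further for the dim Foxo3 probe set (-0.53 to -0.12) and the dimmer Foxo4 probe set (-0.45 to -0.07).

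Cdkn1c, the imprinted gene of p57, was near the median probe set of 4.48 throughout, at 4.54, 4.55 and 4.46 in IR, 4.53, 4.54 and 4.44 in NIR and 4.57, 4.86 and 4.56 in PA. PA arrays lay above all IR and all NIR arrays, though PA1 and PA3 did so barely and PA2 alone stood higher. IR minus PA was -0.14 (95% interval -0.34 to 0.05, limma adjusted p = 0.725) and NIR minus PA -0.16 (-0.35 to 0.03, adjusted p = 0.510). Groups set apart in this direction were found for 7.43% of all genes in IR minus PA and 7.73% in NIR minus PA, where 1 and 2 of the 9 genes were so placed, the second being Ccng2.

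Cited2 was bright on every array, at 9.83, 9.74 and 9.97 in IR, 9.81, 10.11 and 9.92 in NIR and 10.06, 9.96 and 10.11 in PA. The IR arrays ran slightly below PA and overlapped it. IR minus PA was -0.20 (95% interval -0.40 to 0.01, limma adjusted p = 0.597) and NIR minus PA -0.10 (-0.30 to 0.10, adjusted p = 0.734). The second probe set of Cited2 gave -0.19 and -0.13. Irs2 read 5.60, 5.51 and 5.67 in IR, 5.54, 5.76 and 5.58 in NIR and 5.58, 5.56 and 5.66 in PA, with all groups overlapping. Its differences from PA were -0.01 in IR (95% interval -0.18 to 0.16, limma adjusted p = 0.989) and 0.03 in NIR (-0.14 to 0.20, adjusted p = 0.929).

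**Figure D3:**
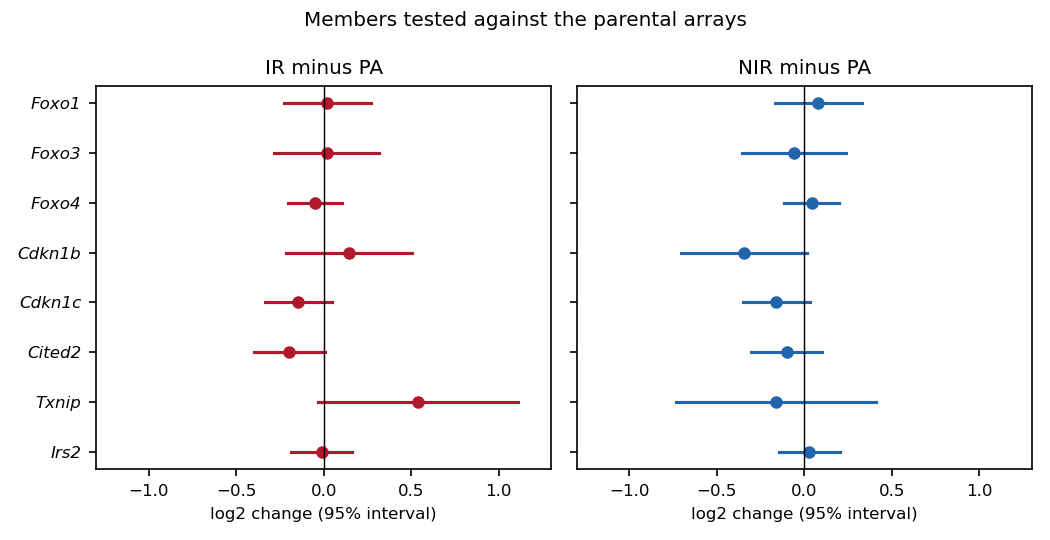
Log2 change (horizontal axis, points with 95% intervals from limma) of the 8 genes other than Ccng2 in IR minus PA (left) and NIR minus PA (right), 3 arrays a group. Every interval includes 0; those of Txnip are the widest, -0.03 to 1.11 in IR and -0.73 to 0.41 in NIR.

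Across the 9 arrays, Txnip and Cdkn1b tracked Ccng2 most closely among the 9 genes by Pearson's r. Pearson's r with Ccng2 was 0.89 for Txnip and 0.85 for Cdkn1b, and 0.76 and 0.69 over the 8 arrays without IR3. For Foxo1, Cdkn1c, Cited2 and Irs2 r lay between -0.03 and 0.07, for Foxo3 it was 0.43 and for Foxo4 -0.39. By rank the order differed. Spearman's rho with Ccng2 was 0.88 for Txnip, 0.60 for Cdkn1b, 0.14 for Cdkn1c and -0.68 for Foxo4. Without IR3 these were 0.83, 0.43, 0.49 and -0.61. These are descriptions of arrays that share 3 groups and a common normalization. Among 451 named genes with an SD of at least 0.3 over the arrays and a mean above the median probe set, Txnip ranked 30 and Cdkn1b 45 by likeness to Ccng2.

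The 5 genes most like Ccng2 were Ankrd37 (r = 0.98), a small ankyrin repeat protein gene induced in hypoxia, Ppp3cb, a catalytic subunit of calcineurin (0.96), Prelid2 (0.96), Clybl, a mitochondrial enzyme gene (0.96), and Trappc6a, a subunit of a vesicle tethering complex (0.96). Without IR3 their r with Ccng2 was 0.89 to 0.96. Ankrd37 read 5.91, 5.92 and 6.81 in IR, 5.39, 5.13 and 5.17 in NIR and 5.75, 5.67 and 6.17 in PA. Ppp3cb read 8.63, 8.60 and 9.05 in IR, 7.90, 7.99 and 8.13 in NIR and 8.51, 8.53 and 8.59 in PA. The genes were picked for this likeness, so the order of their groups and the height of IR3 add nothing to those of Ccng2.

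The 32 other genes reported as FOXO targets were listed with earlier results of these data known. Of these 32, 4 were called higher and 0 lower in IR than in NIR, where 0.786% of all genes were called higher. They were Bnip3, a mitophagy receptor (1.62), Bcl2l11, the cell death gene BIM (0.54), Klf6, a zinc finger factor (0.47), and the catalase gene Cat (0.44), which was named after its value was seen. Bnip3 and Bcl2l11 were called without any single array, Klf6 was not called once any array was left out, and Cat only without NIR3 or without PA3. Bcl2l11 read 7.29, 7.34 and 7.58 in IR, 6.81, 6.88 and 6.89 in NIR and 7.13, 7.11 and 7.08 in PA, which puts PA between the others. The list's median change was 0.12 in IR minus NIR, 0.08 in IR minus PA and -0.08 in NIR minus PA, against medians near 0.00 over all genes. Against PA 0 of the 32 were called by limma in IR, 8 at an unadjusted p below 0.05, and 0 in NIR, 6 at an unadjusted p below 0.05. Over all probe sets, 7.32% in IR and 10.1% in NIR had such a p (limma), and the share over genes was not counted. Bnip3 is a target of the hypoxia-inducible factors as well and stands in both lists, as do Ddit4 and Mxi1.

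In the insulin and PI3K-AKT pathway, which holds FOXO factors in check, 28 of 30 listed genes were analysed. Sgk1, a kinase related to AKT that phosphorylates FOXO3, was the single call in NIR against PA, where 0.918% of all genes were called lower. It read 9.75, 9.81 and 10.01 in IR, 9.09, 9.10 and 9.55 in NIR and 9.75, 9.96 and 9.81 in PA, so NIR was apart and IR and PA overlapped. Sgk1 fell in NIR against PA (-0.59, SE 0.12, limma adjusted p = 0.0406), a call lost without any array but IR3 or NIR3 (adjusted p up to 0.185, without PA2), and was called higher in IR than in NIR (0.61), a call lost without any array but NIR3. In IR against PA 0 of the 28 were called by limma, beside 1.06% of all genes, and 0 had an unadjusted p below 0.05. At that p there were 6 in IR minus NIR and 2 in NIR minus PA (limma). Over all probe sets, 12.9% in IR minus NIR, 7.32% in IR minus PA and 10.1% in NIR minus PA had such a p. The list's median change stayed between 0.01 and 0.04 in the 3 comparisons.

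Of 13 analysed regulators of FOXO proteins, among them the deacetylase gene Sirt1 and the ubiquitin ligase gene Skp2, 0 were called in any comparison by limma. At an unadjusted p below 0.05 there were 5 in IR minus NIR, 0 in IR minus PA and 3 in NIR minus PA. Over all probe sets the shares at that p (limma) were 12.9%, 7.32% and 10.1%, and the share over genes was not counted. The median of this list was -0.15 in IR minus NIR and 0.13 in NIR minus PA, with 1 and 11 of the 13 values positive. Of 12 alpha-arrestin and thioredoxin genes related to Txnip, 1 was called in NIR minus PA, beside 0.918% of all genes called lower. It was Arrdc3, an alpha-arrestin, which fell in NIR against PA (-0.66, SE 0.11, limma adjusted p = 0.0112). Arrdc3 read 6.63, 6.68 and 6.83 in IR, 6.27, 6.54 and 6.59 in NIR and 7.23, 7.25 and 6.92 in PA. At an unadjusted p below 0.05 (limma) the 12 genes gave 4 in IR minus NIR, 2 in IR minus PA and 2 in NIR minus PA. The Arrdc3 call was lost without PA1 (0.0784) or PA2. Unlike Ccng2, Arrdc3 stood below PA on all IR arrays too. Of 11 partners of Cited2, such as Ep300 and Hif1a, 0 were called in any comparison. At an unadjusted p below 0.05 (limma) there were 2 in IR minus NIR, 1 in IR minus PA and 2 in NIR minus PA. The shares of all probe sets at that p were again 12.9%, 7.32% and 10.1%. Over all genes, 1.65%, 1.06% and 1.3% were called, for this list as for the FOXO regulators.

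Few genes of the cell cycle were called. Of 14 other CDK inhibitors and pocket proteins 0 were called by limma in any comparison, with 5, 1 and 4 at an unadjusted p below 0.05 in IR minus NIR, IR minus PA and NIR minus PA. Of 21 cyclins and CDKs 0 were called as well, with 4 at an unadjusted p below 0.05 in each. Such a p (limma) was found for 12.9%, 7.32% and 10.1% of all probe sets in IR minus NIR, IR minus PA and NIR minus PA. The share over genes was not counted. Limma called 1.65%, 1.06% and 1.3% of all genes in the same order. Of 23 proliferation genes, 1 was called, beside 0.786% of all genes called higher in IR than in NIR, the spindle checkpoint kinase gene Bub1, higher in IR than in NIR (0.40), a call lost without any of the IR arrays. The mean of the proliferation genes was 9.96 to 10.03 in IR, 9.99 to 10.04 in NIR and at most 10.05 in PA.

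Targets of the hypoxia-inducible factors ran alongside Ccng2. The mean of 23 of them was 8.54, 8.54 and 8.93 in IR1, IR2 and IR3, 8.21, 8.33 and 8.28 in NIR and 8.46, 8.46 and 8.65 in PA, and 18 of the 23 were highest in IR3. NIR lay below both other groups on every array, and IR3 and PA3 were the top arrays of their groups, as for Ccng2. The list was chosen with earlier results of these data known, so the count of its calls in IR minus NIR is a description. Its calls in NIR minus PA share the NIR arrays with that comparison, so they and their p-values are a description too. In IR minus NIR 5 of the 23 were called higher and 0 lower, beside 0.786% and 0.863% of all genes. They were Bnip3, Pdk1 (1.34) and Ankrd37 (0.99), and, named after their values were seen, Bhlhe40 (0.63) and Ak4 (0.52). Ankrd37 and Ak4 lost the call whichever array was left out, Pdk1 lost it without NIR1 or NIR2, and Bnip3 and Bhlhe40 kept it without any single array. In NIR against PA 3 fell, beside 0.918% of all genes called lower, Pdk1, the kinase that shuts pyruvate dehydrogenase (-1.02, limma adjusted p = 0.047), Bhlhe40, a repressor (-0.56, adjusted p = 0.00967), and Ak4, a mitochondrial adenylate kinase (-0.53, adjusted p = 0.047). Of these, Bhlhe40 lost its call without PA3 (adjusted p = 0.0601) and Pdk1 and Ak4 without any of 7 arrays (up to 0.178 without PA2 and 0.182 without PA3). In IR against PA 0 were called by limma, 3 at an unadjusted p below 0.05, beside 7.32% of all probe sets. Some markers of other cells moved in the same comparisons with PA, where 0.379% of all genes were called higher in NIR and 0.297% in IR. Of 11 fibroblast markers, Lum (1.29, limma adjusted p = 0.0241) and Dcn (0.81, adjusted p = 0.0391) rose in NIR, and Dcn rose in IR (1.24, adjusted p = 0.00265). In NIR minus PA 9 of the 11 changes were positive, while Acta2 lay below all PA arrays (6.22, 6.48 and 6.39 against 6.54, 6.62 and 6.56). Of 14 macrophage markers, Mrc1 rose in NIR (0.75, limma adjusted p = 0.0156). In NIR minus PA the call of Dcn was lost without any of 7 arrays, that of Lum without any of 5 and that of Mrc1 without any of 3, while Dcn kept its call in IR minus PA without any single array. The mean of the fibroblast markers was 7.08 to 7.18 in IR, 6.91 to 7.25 in NIR and 6.75 to 6.89 in PA, and 3 of the 11, Thy1, Fap and Postn, averaged below the median probe set. The part of these markers in the differences from PA was not tested. The part of the hypoxia targets in the level of Ccng2 was not tested.

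**Figure D4:**
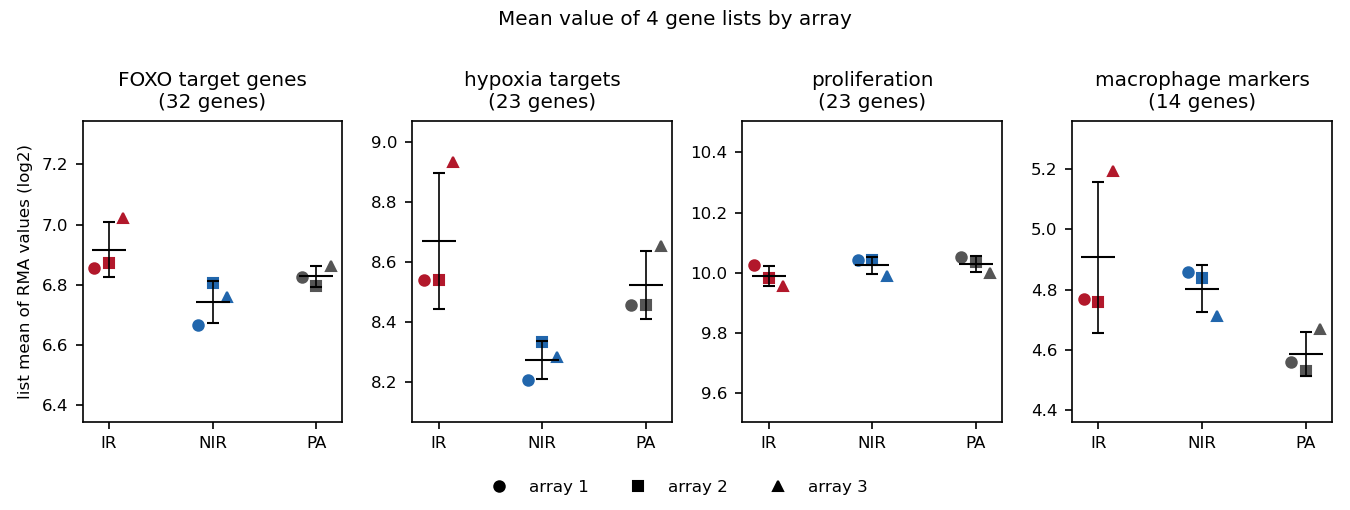
Mean RMA value (log2, vertical axis, the same span of 1 unit in every panel) of the FOXO target, hypoxia target, proliferation and macrophage marker lists on each IR, NIR and PA array; symbols are arrays 1 to 3, bars the mean and SD of n = 3. Hypoxia targets are lowest in NIR (8.21 to 8.33) and highest in IR3 (8.93), proliferation genes span 9.96 to 10.05, and macrophage markers peak in IR3 (5.19).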

How the data were processed

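Total RNA from 9 SCCVII samples was labelled with biotin and hybridized to Affymetrix mouse arrays, per the labels' protocols. The deposited values are log2 expression values that the authors made with RMA, per the submitters' processing notes, with version and settings not given in the sources used here. They ran from 2.47 to 14.0 and were used as deposited. Probe sets were named from the platform annotation, with symbols updated by Entrez identifier against RefSeq (34740 of 34944 single-gene probe sets matched), and each gene was represented by its brightest probe set, averaged across all 9 arrays.

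The 3 comparisons came from a single linear model in limma 3.58.1 under R 4.3.3 (lmFit, then eBayes; group means, all 9 arrays, 2-sided, 6 residual and 5.48 prior degrees of freedom), with Benjamini-Hochberg adjustment over 18193 genes and a threshold of 0.05. A separate fit held all 45036 probe sets. The procedure was tested on simulated data with independent noise on each array. That test does not bear on whether the arrays of a group stem from separate tumours. The members and lists were chosen with earlier results of these data known, and list genes were named as the called ones with the largest change, up to 3 a list and comparison. The genes most like Ccng2 were the 5 with the highest Pearson r. Alternatives changed the probe set, signal filter, normalization, moderation, weights, arrays in the fit, replicate block and single arrays. Figures were drawn with matplotlib 3.10.9.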

Additional observations from a re-analysis of the deposited data

How the results depend on the processing

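Each alternative was set against all 9 arrays in a single fit. The number of genes called in IR minus NIR was 300 and became 11 when only the 2 groups compared were fitted, and 77 to 271 when single arrays were left out. In IR minus PA it was 192, with 468 under array weights and 99 to 214 without single arrays. In NIR minus PA it was 236, with 382 under array weights and 121 to 370 without single arrays. Of the 9 members, 1 was called in IR minus NIR, with 0 under the mean of probe sets, median centring, eBayes with trend and robust settings, and the fit of the 2 groups alone, and 0 to 1 without single arrays (1 only without IR3). In NIR minus PA 0 were called, with 1, Ccng2, in the fit of the 2 groups alone, and 0 to 1 without single arrays (1 only without IR3). The calls of Ccng2 share arrays with the choice of the genes, and nothing is read from them. In IR minus PA 0 were called under every alternative run.

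Of the 8 members tested against PA, 0 were called, and the directions of some turned under the alternatives. In IR minus PA, Foxo1 ran from -0.063 to 0.18 without single arrays and was -0.18 by another probe set. Foxo3 was -0.10 by the mean of probe sets, -0.042 under array weights, -0.060 to 0.071 without single arrays and -0.32 by another probe set. Cdkn1b was -0.036 to 0.24 without single arrays and -0.027 by its dim probe set, and Irs2 was -0.050 to 0.032 without single arrays. In NIR minus PA, Foxo1 was -0.0038 to 0.23 without single arrays and -0.052 by another probe set. Foxo3 was 0.016 under array weights, -0.17 to 0.13 without single arrays and 0.027 by another probe set. Foxo4 was -0.023 by the mean of probe sets and -0.089 by its dimmer probe set, Cdkn1b was 0.0066 by its dim probe set, Txnip was 0.059 by its other probe set, and Irs2 was -0.038 to 0.073 without single arrays.

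The replicate numbers of the labels did not pair the arrays: same-numbered arrays had deviations from their group means that correlated between -0.20 and 0.097. With the number as a replicate block, 230, 164 and 203 genes were called in IR minus NIR, IR minus PA and NIR minus PA, and 1, 0 and 0 of the members.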

Other observations

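A further probe set is annotated to both Foxo3 and Gm38485 and was left out of the comparisons. It read 5.13, 4.96 and 4.99 in IR, 5.29, 5.20 and 5.11 in NIR and 5.05, 5.21 and 5.11 in PA, and the 3 groups overlapped.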
